A study of Drosophila melanogaster with 2 samples.

Results

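The genes described here encode machinery of membrane traffic and were chosen by symbol: protein-coding genes of the dm6 annotation whose symbol is Rab, Arf or Sec followed by a digit, or ends in COP after the name of a Greek letter. The rule, which uses no measured value, gave 60 of the 13945 protein-coding genes on the 6 chromosome arms. They are 28 Rab GTPases, 3 regulators of Rab3, 3 Arf GTPases, the Arf exchange factor Sec71, 7 COPI subunits, 6 COPII genes, 4 genes of the Sec61 translocon, 6 exocyst subunits and 2 SNAREs. The 5 RabX genes lie outside the symbol rule and were read beside them. Chromatin was taken from whole Drosophila melanogaster embryos of both sexes, 0 to 24 hours old, and binding of the zinc finger protein Sry-delta was measured by chromatin immunoprecipitation and sequencing (ChIP-seq). All embryos came from 1 transgenic line, Sry-delta-GFP, that stably carries Sry-delta with green fluorescent protein fused to the C-terminus, and the antibody was against GFP. Which promoter drives the construct, and whether the untagged gene was intact, is not stated in the labels. There is 1 group of 2 biological replicates, labelled 3 and 4, so no contrast between conditions could be made. No input library was analysed here, and the sequencing depth behind the peaks is unknown.

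Rab and Arf proteins are small GTPases that switch between a GTP-bound form on membranes and a GDP-bound form. Rabs give each compartment its identity and recruit tethers, while Arf1 and its relative Sar1 recruit the COPI and COPII coats that bud vesicles between the endoplasmic reticulum and the Golgi. Secretory proteins enter this route through the Sec61 channel, and exocyst tethers and SNAREs deliver vesicles to their target membranes. Every cell uses most of these genes, whereas Rab3 and Rab26 are known for synaptic vesicles. The closely related genes Rab9D, Rab9Db, Rab9E, Rab9Fa and Rab9Fb are named for Rab9 and are called the Rab9 copies here.

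A gene was called bound when the summit of a peak of the authors' optimal set lay within 500 bp of any of its annotated start sites. Of the 60 trafficking genes, 47 were bound (78.3%, exact 95% interval 65.8% to 87.9%), and 39.0% of all 13945 coding genes were bound by the same measure. The 13 without such a summit included all 5 Rab9 copies. The bound genes ran from Sec61alpha, at rank 9 of 6318 optimal peaks, to Sec31 at rank 5689. No peak was counted for 2 of the 47, although 28 of their summits also lay within 500 bp of the start of another coding gene. The interval covers counting error over genes only.

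Promoter sequence under these summits is shown first, because the genes differ in which element it holds. The DNA replication-related element (DRE), TATCGATA, is a site for the factors DREF and BEAF-32, the latter of which acts at insulators, and it reads the same on both strands. An exact match on either strand lay within 100 bp of the summit for 14 of the 47 bound genes. The stretches below, from genome Release 6 (dm6), are written 5′ to 3′ along the gene's own strand, lie outside annotated exons, and carry the DRE in capitals. They come from 8 of the 10 Rab promoters with the element and from 3 coat and translocon promoters.
Rab30 (chr2L:7032607-7032693, minus strand): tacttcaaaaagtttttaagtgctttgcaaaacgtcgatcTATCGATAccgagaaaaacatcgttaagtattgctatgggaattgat
Rab7 (chr3R:23992951-23993007, plus strand): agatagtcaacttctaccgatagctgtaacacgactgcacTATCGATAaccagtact
Rab35 (chrX:20159873-20159924, minus strand): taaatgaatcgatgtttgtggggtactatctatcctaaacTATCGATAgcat
Rab40 (chrX:12463113-12463169, minus strand): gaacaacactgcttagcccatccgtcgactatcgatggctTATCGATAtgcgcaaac
Rab8 (chr3L:19871079-19871136, minus strand): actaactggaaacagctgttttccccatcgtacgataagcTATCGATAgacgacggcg
Rab27 (chrX:1476997-1477062, minus strand): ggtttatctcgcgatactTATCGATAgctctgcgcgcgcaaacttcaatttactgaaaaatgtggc
Rab19 (chr3L:8296958-8297017, plus strand): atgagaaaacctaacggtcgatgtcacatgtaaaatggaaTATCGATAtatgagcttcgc
Rab6 (chr2L:12109121-12109208, minus strand): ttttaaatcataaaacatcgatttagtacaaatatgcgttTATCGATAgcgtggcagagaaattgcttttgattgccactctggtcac
beta'COP (chr2L:13378807-13378894, plus strand): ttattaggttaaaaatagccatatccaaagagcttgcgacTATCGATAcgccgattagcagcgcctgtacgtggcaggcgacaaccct
gammaCOP (chr3R:31572068-31572142, plus strand): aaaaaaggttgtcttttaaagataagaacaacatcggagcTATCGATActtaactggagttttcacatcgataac
Sec63 (chr3L:7360480-7360560, plus strand): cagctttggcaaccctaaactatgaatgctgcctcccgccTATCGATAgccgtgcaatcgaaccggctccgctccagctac

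Bound promoters also held Motif 7, a 13-base element found in core promoters of flies, or the 13-base consensus that Sry-delta binds in vitro. These are not separate from the DRE promoters above. Rab7, Rab27, Rab30 and beta'COP hold Motif 7 as well as the DRE, and Rab30, Rab35 and Rab8 hold the consensus as well as the DRE. Motif 7 was searched with no mismatch and the consensus with at most 2 mismatches, both on either strand. The first 4 stretches below carry the Motif 7 match in capitals. The last pair carries the consensus match in capitals, and in both of these the consensus match overlaps a Motif 7 match. Motif 7 and the consensus are alike in part when read on opposite strands. They are shown because Sec8 has the highest exocyst peak and Sec23 and Sec16 are central to COPII, while Rab39 represents Rabs that hold no DRE. The Rab39 summit lies 268 bp upstream of Rab39 and 4 bp upstream of Pdp, which shares it. Those of Sec23 and Sec16 lie 290 and 385 bp upstream and are shared with MTA1-like and CG1824. To which gene of each pair the element belongs cannot be told apart.
Sec23 (chr3R:5648739-5648807, plus strand): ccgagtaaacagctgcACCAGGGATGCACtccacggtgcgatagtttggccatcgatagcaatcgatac
Rab39 (chrX:7734652-7734716, plus strand): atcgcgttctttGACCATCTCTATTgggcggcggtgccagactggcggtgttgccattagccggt
betaCOP (chrX:18385243-18385307, minus strand): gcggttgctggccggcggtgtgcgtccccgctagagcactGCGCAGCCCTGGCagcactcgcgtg
Sec61gamma (chrX:19643262-19643326, plus strand): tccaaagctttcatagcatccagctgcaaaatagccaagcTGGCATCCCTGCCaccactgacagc
Sec8 (chr3R:5758998-5759068, minus strand): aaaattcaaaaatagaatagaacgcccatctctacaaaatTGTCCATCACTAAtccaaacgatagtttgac
Sec16 (chrX:12595625-12595678, plus strand): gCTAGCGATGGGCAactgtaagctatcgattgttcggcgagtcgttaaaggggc

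The upstream sequence of the Rab9 copies is shown for contrast, since none of them had a peak. Each stretch is the 60 bases before the annotated start on the X, with nothing in capitals. Those of Rab9Db and Rab9Fa, 2 annotated loci, differ at 0 of 60 positions, while that of Rab9D differs from either at 42 of 60.
Rab9D (chrX:10589029-10589088, plus strand): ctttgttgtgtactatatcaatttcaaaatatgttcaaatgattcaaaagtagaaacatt
Rab9Db (chrX:10623226-10623285, minus strand): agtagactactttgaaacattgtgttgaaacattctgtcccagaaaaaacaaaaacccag
Rab9Fa (chrX:10951031-10951090, minus strand): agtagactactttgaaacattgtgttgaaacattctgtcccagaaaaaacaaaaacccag

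Rabs used in most cells were bound at 13 of 14 genes (92.9%, exact 95% interval 66.1% to 99.8%), where 39.0% of all coding genes were. Their median rank was 855 among the 6318 optimal peaks. This group was drawn up from general knowledge of Rab function, not from expression data. Rab7, which acts on late endosomes and lysosomes, had the highest peak of them, 18 bp upstream of its start (chr3R:23992585-23993371). Its signal, the authors' measure of peak height with a separate scale in each list, was 1146 in replicate 3 and 1317 in replicate 4, for ranks of 153 and 193. The peak also lies within 500 bp of the start of Epp, whose own start is 92 bp away in the opposite direction. Rab10, known for polarised secretion of basement membrane, followed with signals of 844.7 and 1084 (ranks 325 and 298). Rab35, which acts in endocytic recycling, had 618.5 and 806.9 (ranks 559 and 534), and Rab11, the GTPase of recycling endosomes, had 558.8 and 766.3 (ranks 641 and 580). Both replicates thus placed these 4 genes in the same order.

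The middle of this group was tightly packed. Rab21, an early endosome Rab, Rab18, known from lipid droplets, Rab39, which acts at lysosomes, Rab2, which acts between the endoplasmic reticulum and Golgi, and Rab14, known from phagosome maturation, had optimal ranks from 771 to 1057. Their order was not the same in the replicates. Rab2 and Rab14 stood at 980 and 972 in replicate 3, ahead of Rab18 (996) and Rab39 (1067), whereas in replicate 4 Rab39 (756) and Rab18 (770) stood ahead of Rab2 (1061) and Rab14 (1156). Rab8, a Rab of post-Golgi transport, had ranks of 1200 and 1544, and Rab6, a Golgi Rab, had ranks of 1710 and 2301.

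The lowest bound genes of this group were Rab5 and Rab1. Rab5, the GTPase of early endosomes, had signals of 111.8 and 203.8 (ranks 2951 and 2384), and Rab1, which acts from the endoplasmic reticulum to the Golgi, had 75.6 and 137.5 (ranks 4094 and 3389). Rab4, which acts in rapid recycling from early endosomes, was the exception among the 14. It had a peak in the pooled list at rank 6576, just past the last optimal peak at rank 6318, and ranks of 7940 and 7128 in the replicates. Its signal in the pooled list was 94.7, against 99.8 for the lowest optimal peak. Rab4 therefore differs from the other 13 by a position just outside the threshold, and its peak was present in both replicates.

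**Figure D1:**
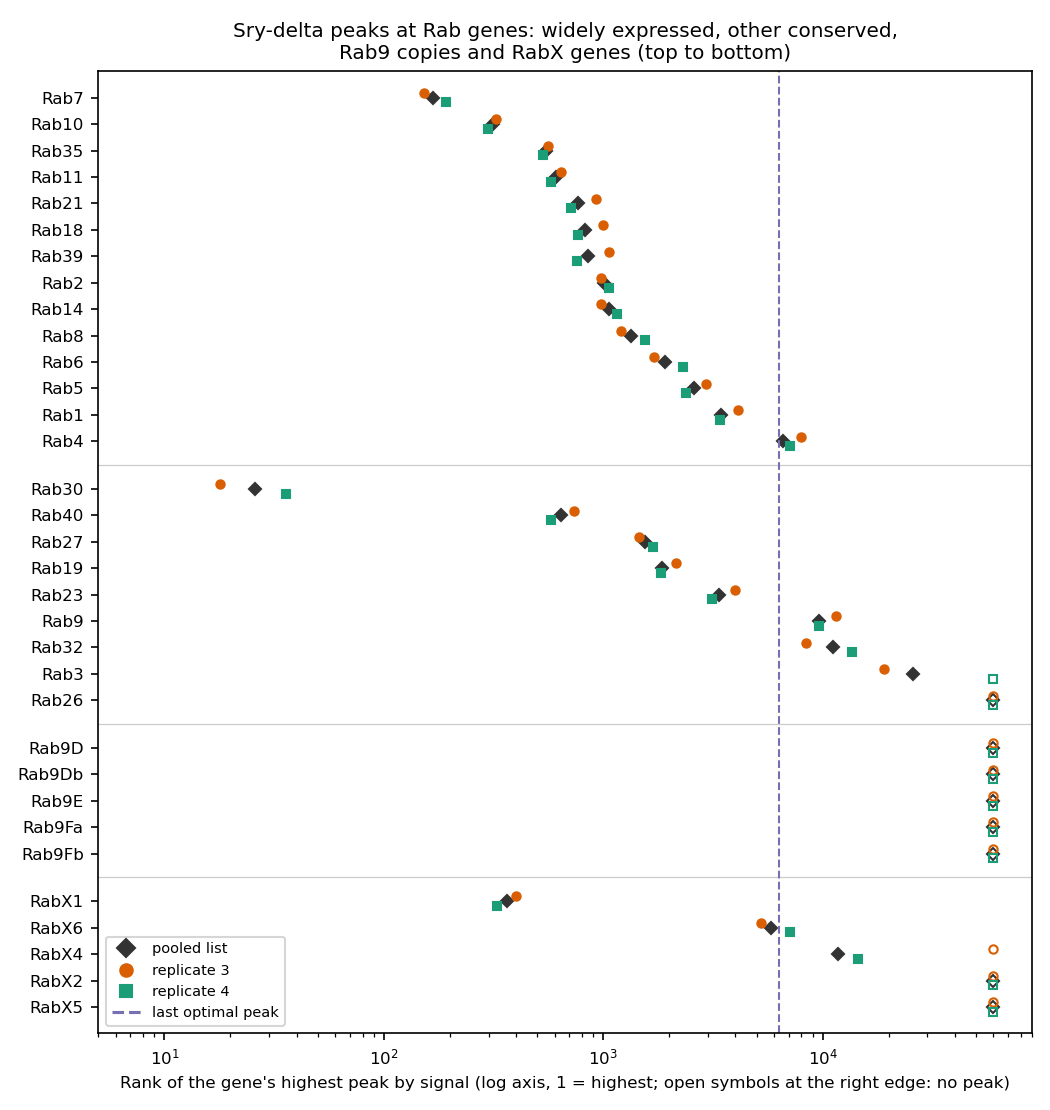
Rank of the highest peak within 500 bp of a start (log axis, 1 is the highest signal) for 28 Rab genes and 5 RabX genes in the pooled list (diamonds), replicate 3 (circles) and replicate 4 (squares), with open symbols for no peak and a dashed line at rank 6318. The widely expressed Rabs lie left of the line except Rab4, Rab30 lies farthest left at ranks 18 and 36, and the 5 Rab9 copies have open symbols only.

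The other conserved Rabs were spread over the whole range. Of these 9 genes, 5 were bound (55.6%, exact 95% interval 21.2% to 86.3%). The 39.0% of all coding genes lies within that interval. Rab30, a Golgi Rab, had the highest Rab peak of all, 61 bp upstream of its start, at signal 2052 in replicate 3 and 2137 in replicate 4, which are ranks 18 and 36. Its summit is shared with Caper, which starts 115 bp away in the opposite direction. Rab40, whose product carries a SOCS box, had signals of 496.1 and 770.9 (ranks 739 and 575), and Rab27, known from regulated secretion, had 258.1 and 292.2 (ranks 1452 and 1686). Rab19 had ranks of 2156 and 1829. Rab23, which acts in planar polarity of the fly wing, had ranks of 4000 and 3138, and its peak lies between it and plx, a gene for a Rab GTPase-activating protein.

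The 4 unbound genes of that group had weak peaks or none, and Rab9 and Rab32 changed places between the replicates. Rab9, which acts between late endosomes and the Golgi, had a pooled rank of 9606 and replicate ranks of 11547 and 9605. Rab32, the GTPase of pigment granules in the fly eye, had a pooled rank of 11092 and replicate ranks of 8429 and 13666. Rab3, the synaptic vesicle Rab, had only a weak peak, at pooled rank 25871 and rank 19102 in replicate 3, and none in replicate 4. Rab26, also known from synaptic vesicles, had no peak within 500 bp in any list, and the optimal summit nearest to its start lay 709 bp away. With a window of 1000 bp Rab26 was counted as bound. In whole embryos, few cells with a strong peak and many with a weak one cannot be told apart.

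None of the 5 Rab9 copies had a peak within 500 bp of its start in the optimal, pooled or replicate lists. A count of 0 of 5 allows a share of up to 60% (3 counts of 5), so the count by itself limits little. All are single-exon genes on the X, between positions 10589089 and 10952486. Their coding sequences were close to each other, with 98.1% to 99.2% identity among Rab9D, Rab9Db, Rab9E and Rab9Fa, and 71.7% to 72.4% between these and Rab9Fb. Against Rab9 itself the identity was only 43.1% to 49.0%, and against RabX2 it was 76.1% to 86.5%. Upstream, the 500 bases before the start were 76.8% to 82.6% identical among Rab9Db, Rab9E and Rab9Fa, and 42.4% to 44.8% between Rab9D and the other 4.

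Near-identical sequence limits where short reads can be placed, and the copies, none of which had a peak, differed in their share of repeated sequence. Of all 31-base words within 500 bp of the start, the share found more than once in the genome was 44.5% for Rab9D, 62.1% for Rab9Db, 75.3% for Rab9E and 70.6% for Rab9Fa, but 5.46% for Rab9Fb. In the other 55 trafficking genes it was at most 0.309%. Among all coding genes, 320 had a share over 50%, and 7 of these were bound (2.19%), against 39.9% of the remaining coding genes. Rab9Fb, with 5.46% of its words repeated, had no peak either, and whether repeats account for any of the missing peaks was not tested. Rab9D has 3 coding genes within 10000 bp, CG2124, Hmr and spri, and all 3 were bound, whereas none of the neighbours of the other 4 copies was. Without the 5 copies, 47 of 55 trafficking genes were bound (85.5%, exact 95% interval 73.3% to 93.5%).

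The 5 RabX genes were split. RabX1 had a high peak, with signals of 759.1 and 1043 (ranks 401 and 327), 166 bp upstream of its start and shared with mi. RabX6 had a low one, with signals of 56.2 and 54.4 (ranks 5210 and 7082), whose summit lies 2 bp from a DRE and which is shared with CG32483. RabX4 had a peak in the pooled list at rank 11792 and in replicate 4 at rank 14541, and none in replicate 3. RabX2, whose coding sequence is closer to the Rab9 copies than that of Rab9 is, and RabX5 had none in any list. RabX2 had 32.8% repeated words. Copies and RabX genes together had 2 of 10 bound (20%, exact 95% interval 2.52% to 55.6%), beside 13 of 14 for the widely expressed Rabs. The 39.0% of all coding genes lies within that interval of 2.52% to 55.6%. Roles were assigned with earlier results of these data known, and the difference from the widely expressed Rabs was not tested.

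**Figure D2:**
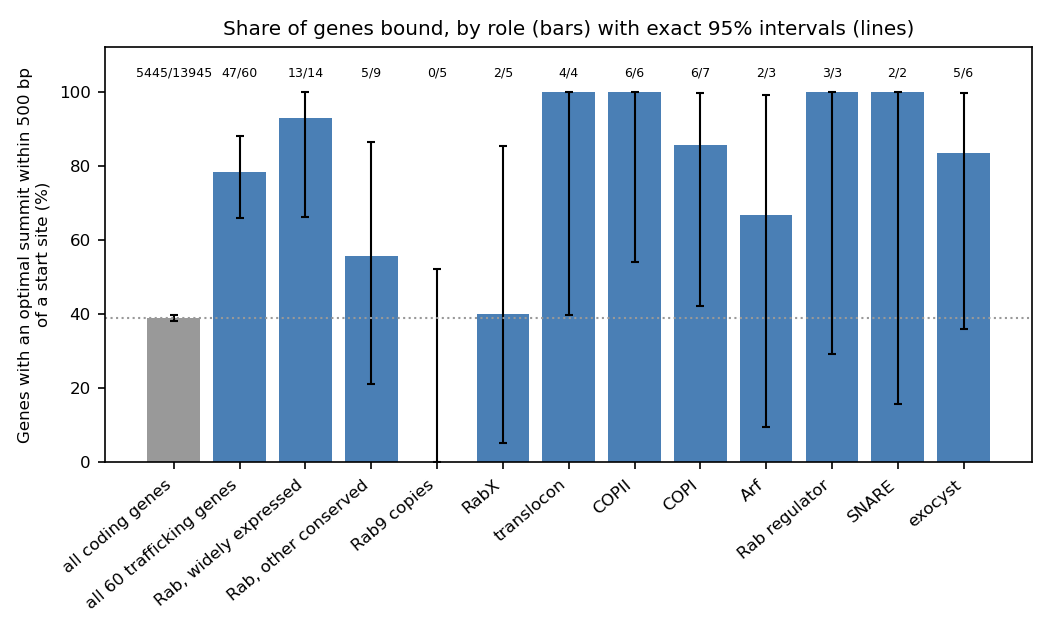
Percent of genes with an optimal summit within 500 bp of a start site, by role, with exact 95% intervals as lines and the counts above the bars. The dotted line is the 39.0% of all coding genes, the RabX genes are not among the 60, and Sec71 is counted in the 60 but has no bar of its own.

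All 4 genes of the translocon were bound, with a median rank of 810.5. Sec61alpha, the channel-forming subunit, had the highest peak of all 60 genes, at signal 2395 in replicate 3 and 3080 in replicate 4, which are ranks 10 and 8. Its summit lies 285 bp upstream of Sec61alpha and is shared with Daxx, which starts 354 bp from Sec61alpha in the opposite direction. Sec61beta, a small tail-anchored subunit, had signals of 1066 and 1329 (ranks 192 and 189), with its summit 41 bp upstream of the start and shared with no other coding gene. Sec63, which couples the channel to the chaperone BiP, had 238.8 and 352.5 (ranks 1558 and 1407). Sec61gamma, the third subunit of the channel, was lowest with 86.4 and 124.9 (ranks 3664 and 3665). The 3 subunits of 1 channel were thus far apart, from rank 9 to rank 3512 in the optimal list.

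The COPII genes were bound in 6 of 6 cases, where 39.0% of all coding genes were. Their median rank was 1056.5. Sec13, which forms the outer cage with Sec31 and is also part of nuclear pores, had signals of 599.8 and 795.6 (ranks 583 and 544). Sec24AB, a cargo-binding subunit, had 587.5 and 589.4 (ranks 602 and 821), and its partner Sec23, the activator of Sar1, had 379.5 and 567.5 (ranks 1011 and 857). Sec16, the scaffold of exit sites, had ranks of 1171 and 1164, with a summit 385 bp upstream that is shared with CG1824. The summit of Sec13 lies 207 bp upstream and is shared with ATPsynCF6, where it is 7 bp upstream of the start. That of Sec23 lies 290 bp upstream and is shared with MTA1-like, where it is 37 bp upstream of the start. The highest Sec23 summit of replicate 3 was a different one, 14 bp upstream of Sec23, while that of replicate 4 lay 292 bp upstream. Sec24CD, the other cargo-binding subunit, had ranks of 1655 and 1824. Sec31 was the lowest bound gene of all 60, with signals of 43.6 and 68.1 (ranks 6429 and 5982). Sec13 and Sec31, partners in 1 cage, thus had the highest and the lowest peak of the COPII genes. Sec31 was no longer counted among the highest 6318 peaks of replicate 3.

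The COPI coat was bound at 6 of 7 subunits, where 39.0% of all coding genes were. Its median rank was 1953, with its highest peak at rank 940. The highest were beta'COP of the outer layer, with signals of 345.2 and 600.7 (ranks 1138 and 801), and gammaCOP of the inner layer, with 391.1 and 452.4 (ranks 967 and 1124). These 2 changed places between the replicates. The others in order were epsilonCOP (ranks 1599 and 1587), betaCOP (2604 and 2282), deltaCOP (2754 and 2660) and alphaCOP (4421 and 2434), the largest subunit of the outer layer. The ranks of alphaCOP differed more between the replicates than those of any other bound trafficking gene except Rab30. zetaCOP, the small inner subunit, was the 1 unbound gene, at pooled rank 7219 and replicate ranks of 6657 and 9068.

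Arf1, the GTPase that recruits COPI, had signals of 451.3 and 456.1 (ranks 836 and 1117). Its optimal summit lies 64 bp inside the gene, as in replicate 4, and is shared with CG11109. In replicate 3 the highest Arf1 summit lay 76 bp upstream of an annotated start. Arf4 on chromosome 4 had 68.8 and 92.5 (ranks 4418 and 4690). Arf6, which acts at the plasma membrane, was unbound, with a pooled rank of 8060 and replicate ranks of 8566 and 7506. Sec71, which loads Arf with GTP, had a peak 24 bp inside the gene (ranks 4978 and 6127). The 3 regulators of Rab3 were all bound, although Rab3 itself was not. Rab3GAP1 had ranks of 2850 and 2090, Rab3-GAP had 3217 and 3424, and Rab3-GEF, an exchange factor, had 6038 and 5788.

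The SNAREs and the exocyst spanned the whole range of signal. Sec20, a SNARE of retrograde traffic to the endoplasmic reticulum, had signals of 562.5 and 909.5 (ranks 631 and 437), and its partner Sec22 had 50.4 and 80.8 (ranks 5686 and 5236). Of the 6 exocyst genes, 5 were bound, with a median rank of 3401. Sec8 had signals of 1633 and 1986 (ranks 44 and 55), with a summit 14 bp upstream of its start and no other coding gene within 500 bp of it. Sec3 followed (ranks 798 and 727), then Sec6 (4058 and 3085), Sec15 (4681 and 5386) and Sec10 (5374 and 6159). Sec5 was unbound, with a pooled rank of 7696, and its 2 replicates were far apart at ranks 16814 and 6584. Sec5 starts 238 bp from Cog3, a subunit of another tether, in the opposite direction. Subunits of 1 complex therefore ranged from rank 47 in the optimal list to no optimal peak.

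**Figure D3:**
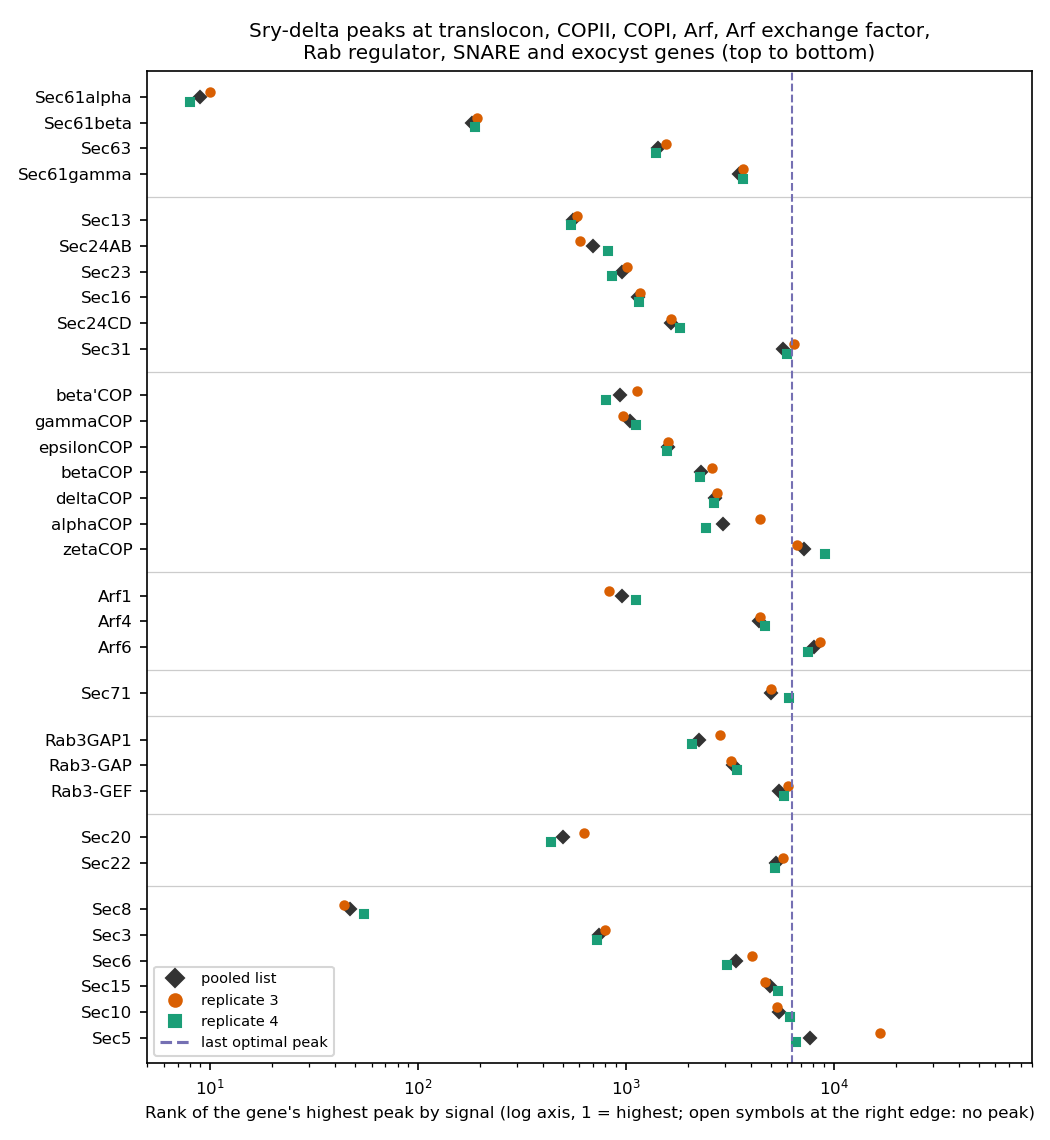
Rank of the highest peak within 500 bp of a start (log axis, 1 is the highest signal) for the trafficking genes other than Rab GTPases, grouped by role, in the pooled list (diamonds), replicate 3 (circles) and replicate 4 (squares), with a dashed line at rank 6318. Sec61alpha and Sec8 lie farthest left, and zetaCOP, Arf6 and Sec5 lie right of the line.

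The replicates ranked these genes alike. In each list a gene takes its highest summit within 500 bp of a start, so the replicate values can come from different summits. All 47 bound genes had a peak in both replicate lists, and 46 were among the highest 6318 peaks of both. Counted in replicate 3 alone, 46 of 60 were bound (76.7%), where 38.5% of coding genes were, and in replicate 4 alone 47 of 60 (78.3%), where 38.6% were. The ranks of 45 of the 47 genes (95.7%) lay within 1.5-fold of each other, and those of 84.5% of the 5421 bound coding genes found in both lists did. The optimal set was made from these lists for reproducible ranks, so this is no independent measure of it. Of the 47 genes, 29 had the better rank in replicate 4 and 18 in replicate 3. The exceptions beyond 1.5-fold were Rab30, with a log2 ratio of its rank in replicate 4 over replicate 3 of 1.00, and alphaCOP, with -0.86.

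In the whole pooled list of 30000 peaks, 54 of the 60 genes had a summit within 500 bp (90.0%), where 58.1% of coding genes did. The 7 genes gained were Rab4, zetaCOP, Sec5, Arf6, Rab9, Rab32 and Rab3, in order of rank. The 6 genes with none in any list were Rab26 and the 5 Rab9 copies. Among the bound genes, 26 of 47 (55.3%, exact 95% interval 40.1% to 69.8%) had their summit among the 1579 highest optimal peaks, where 39.8% of all bound coding genes did. The median rank of the 47 was 1345, and that of all bound coding genes was 2068. Neighbouring coding genes often share a peak, which is then counted for each.

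The summits lay just upstream of the annotated starts. They were upstream in 45 of the 47 genes (95.7%), where 88.1% of all bound coding genes had theirs upstream, and the exceptions were Arf1 and Sec71. The median distance was 47 bp, against 66 bp for all bound coding genes, and 34 of 47 (72.3%) lay within 100 bp, against 62.4%. The farthest was that of Sec15, 432 bp upstream and closer to rtet, its neighbour in the opposite direction. A coding gene in the opposite direction started within 1000 bp of 31 of the 47 (66.0%), and of 62.3% of all bound coding genes. The same summit lay within 500 bp of another coding gene's start in 28 of 47 cases (59.6%), where 57.0% of bound coding genes had such a summit. For these 28 genes the gene to which a peak belongs cannot be told apart. The remaining 19, among them Sec8, Sec61beta, Rab35, Rab11, gammaCOP and Sec24AB, had a summit of their own.

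**Figure D4:**
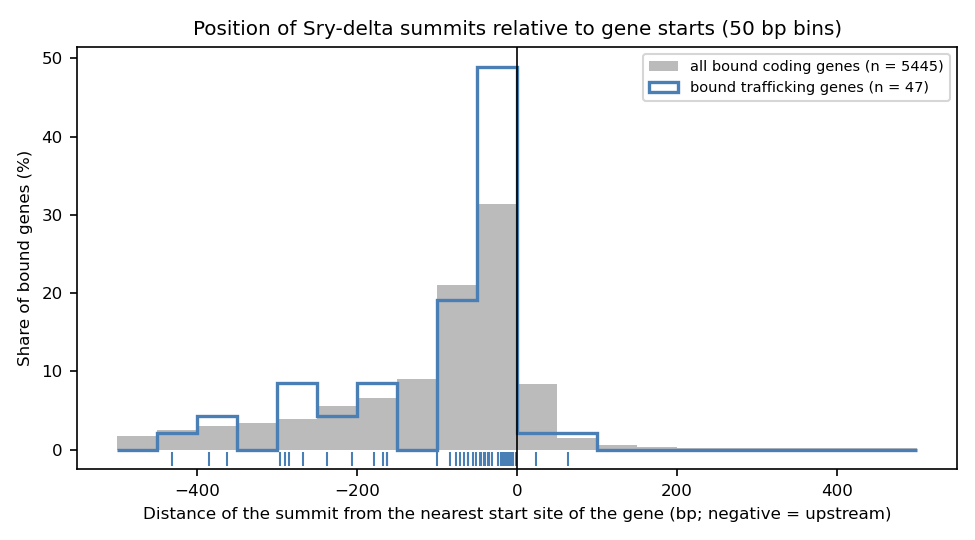
Percent of bound genes by the distance of the highest summit from the nearest start of the gene (bp, negative is upstream, 50 bp bins), for all 5445 bound coding genes (grey) and the 47 bound trafficking genes (blue line, with a tick for each gene). Most blue ticks lie just left of 0, and the farthest is at -432 bp.

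The DRE shown in capitals above lay within 100 bp of the summit in 14 of the 47 bound genes (29.8%, exact 95% interval 17.3% to 44.9%), where 21.2% of all bound coding genes had it. Of the 18 bound Rab GTPases, 10 held it (55.6%, exact 95% interval 30.8% to 78.5%), namely Rab2, Rab6, Rab7, Rab8, Rab14, Rab19, Rab27, Rab30, Rab35 and Rab40. Of the 26 bound genes that are neither Rabs nor Rab regulators, 4 held it (15.4%, exact 95% interval 4.36% to 34.9%), namely beta'COP, gammaCOP, Sec24AB and Sec63. No bound exocyst gene of 5, Rab regulator of 3, SNARE of 2 or Arf gene of 2 did, and such small counts allow high shares. The difference between the roles was not tested. The Rabs without it were Rab1, Rab5, Rab10, Rab11, Rab18, Rab21, Rab23 and Rab39.

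The element lay close to the summit, at a median offset of 19 bp, and within 50 bp in 12 of the 14 genes. In windows of the same length centred 500 bp to either side of the summits it was found in 0 of 94, and in 0.725% of those of all bound coding genes. Genes with it had a median rank of 1032 (range 26 to 1912), and genes without it had a median of 2263 (range 9 to 5689). The same medians over all bound coding genes were 1250 and 2385. Read from the start sites rather than the summits, the DRE lay within 500 bp of a start in 16 of the 60 trafficking genes (26.7%) and in 12.3% of all coding genes. All 16 were bound. None of the 13 unbound trafficking genes held it, and only 2.81% of all unbound coding genes did, so the 0 says nothing particular about these 13. Of the 1715 coding genes with it, 86.1% were bound.

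Motif 7, the other element shown above, was found at 16 of the 47 bound genes (34.0%, exact 95% interval 20.9% to 49.3%), where 19.4% of bound coding genes held it. It lay at 4 of the 6 COPII genes, Sec13, Sec16, Sec23 and Sec24CD, at 6 of the 18 Rabs and at Sec61alpha, Sec61gamma, beta'COP, betaCOP, Arf1 and Sec8. Motif 1, an 11-base core promoter element bound by M1BP and searched with at most 1 mismatch, was found at 9 of 47 (19.1%), where 19.9% of bound coding genes held it. Sec31, Sec22 and Sec71, which are among the genes with the lowest peaks, held Motif 1 together with Motif 6. Motif 6, a 12-base element searched with at most 1 mismatch, was found at 5 of 47 (10.6%), where 13.3% did. A match is a description of the sequence and does not show which protein was bound.

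The in vitro consensus of Sry-delta was found within 100 bp of the summit in 6 of the 47 genes (12.8%, exact 95% interval 4.83% to 25.7%), where 8.76% of bound coding genes held it. The 6 were Rab30, Sec8, Rab10, Rab35, Sec16 and Rab8, with optimal ranks of 26, 47, 313, 548, 1152 and 1345. In 4 of the 6 the match overlaps one to Motif 7. Both patterns are alike in part when read on opposite strands, so such overlaps partly follow from the patterns themselves. Sec61alpha, with the highest peak of the set, held Motif 7 and no consensus match within 100 bp of its summit. The windows of 17 of the 47 genes (36.2%) held none of the DRE, Motif 1, Motif 7 and the consensus, where 46.2% of bound coding genes held none. Among these 17 were Sec61beta, Sec20, Sec3 and Rab11, which have high peaks. Consensus matches also occurred without an optimal peak: the start window of Rab9D held 2 consensus matches and that of Sec5 held 1.

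**Figure D5:**
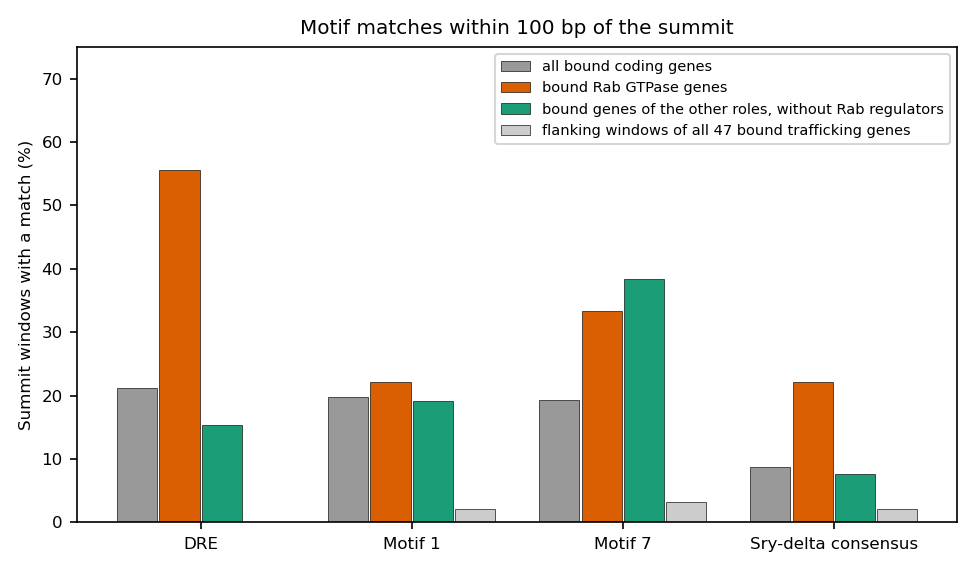
Percent of windows within 100 bp of the summit that hold a motif, for all 5445 bound coding genes, the 18 bound Rab GTPases, the 26 bound genes of other roles without Rab regulators, and 94 flanking windows of the 47 bound genes. The DRE bar is 55.6% for the Rabs and 15.4% for the other roles, the Motif 7 bars of these 2 sets are 33.3% and 38.5%, and the flank bar for the DRE is at 0.

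Gene structure and position varied among the 60. Of 7 single-exon genes, 2 were bound (28.6%, exact 95% interval 3.67% to 71.0%), Rab6 and epsilonCOP, where 19.2% of all single-exon coding genes were. The other 5 are the Rab9 copies. Of the 53 with introns, 45 were bound (84.9%), where 42.6% of all coding genes with introns were. By arm, 11 of 11 genes were bound on 3R, where 39.2% of coding genes were, and 11 of 13 on 2L, where 35.6% were. On 3L 6 of 8 were bound beside 37.3% of coding genes, and the interval of that share, 34.9% to 96.8%, includes the latter. On 2R 5 of 9 were bound beside 38.4%, which also lies within the interval of 21.2% to 86.3%. On the X 13 of 18 were bound beside 45.4%, and the 5 unbound genes there are the copies. An optimal summit in the gene body, over 500 bp from every start, was found in 3 genes, Rab11, Rab32 and Rab3-GEF. No share over all coding genes was taken for this.

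Other genes of the same pathways, taken from lists of general knowledge with 110 members matched of 119, were bound in 89 cases (80.9%, exact 95% interval 72.3% to 87.8%). By the same measure 39.0% of all coding genes were bound. Among small GTPases outside the symbol rule 10 of 13 were bound, with the highest peaks at Rho1 (rank 446), a regulator of actin, Sar1 (537), the COPII GTPase, and Arfrp1 (1075), an Arf relative of the trans-Golgi. Ran, Arl6 and Arl8 were not bound. Regulators of Rabs and Arfs were bound in 14 of 15 cases, led by Rabex-5 (rank 169), which activates Rab5, and the Arf exchange factors step (259) and garz (302). The exception was Rep, the Rab escort protein. Clathrin and adaptor genes were also bound in 14 of 15 cases, led by the adaptor subunit genes g (278) and cm (280) and the dynamin gene shi (355), with AP-2mu unbound.

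The 39.0% of all coding genes also stands beside each of the following counts. SNARE machinery had 22 of 26 members bound, led by Rop (rank 98), which binds syntaxin, Ykt6 (138) and Syx17 (181), a SNARE of autophagosomes. The unbound ones were Bet1, Snap25, Syx16 and nSyb. Cargo receptors of the p24 type and their companions had 7 of 9 bound, led by bai (229), CHOp24 (513) and loj (583), with eca and p24-2 unbound. Signal recognition and translocation genes had 8 of 10 bound, led by TRAM (359), Spase22-23 (627) and SrpRalpha (999), with Spase12 and Srp72 unbound. Tethering genes beyond the 6 exocyst members had 14 of 22 bound, led by Cog4 (834), Golgin97 (1182) and Bet3 (1570). Its unbound members included Cog3, Cog6 and Cog7, subunits of the Golgi tether COG. Cog3 shares its promoter region with Sec5, and the Rab23 peak is also counted for plx, so these lists are not independent of the 60 genes. The CHOp24 peak is also counted for a gene of the clathrin and adaptor list, so the lists are not independent of each other either.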

How the data were processed

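Peaks in the narrowPeak layout were used for replicate 3, replicate 4, both pooled, and an optimal set, all in build dm6. The deposited README texts state that the authors derived each list from alignments with a control, and the optimal set by the irreproducible discovery rate. Aligner, peak caller and threshold: not given in the sources used here. The replicate and pooled lists hold 30000 peaks each, and all peaks carry the authors' signal value, used only to rank and describe peaks, and a deposited −log10 q value, not used to rank. The optimal set equals the 6318 highest-signal peaks of the pooled list. Read totals were not analysed, so depth is unknown.

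Summits were compared with the start sites of Ensembl release 115 (BDGP 6.54) and genome Release 6, using Python 3.11.15, pandas 2.3.3, SciPy 1.17.1 and Biopython 1.88. Coordinates are 1-based. Motifs were searched on both strands within 100 bp of the summit and in equal windows centred 500 bp to each side. Intervals are exact Clopper-Pearson intervals at 95%, and where none of a group was bound the limit is 3 counts. No test between groups was made, since there is 1 group. The assignment of summits and the motif search were checked on simulated data. Every gene of the symbol rule could be named. Of the other pathway lists, up to 3 bound members with the highest signal and up to 3 unbound ones in alphabetical order were named, and nSyb was added after its values were seen. The members, roles and lists were chosen with earlier results of these data known. Coding and upstream identity came from global alignments.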

Additional observations from a re-analysis of the deposited data

How the results depend on the processing

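Of 54 alternatives over 6 results, 41 stayed within the exact 95% interval of the reported share (for the median rank, within 1 SD between replicates), and 13 fell outside. These intervals are wide for small groups and narrow for all coding genes. With a window of 250 bp the share of trafficking genes bound was 70%. The share of trafficking genes bound was 58.3% with a stricter set of the 3159 highest optimal peaks and 90% with all pooled peaks, and 76.7% to 78.3% when each replicate was left out. It was 85.5% without the 5 Rab9 copies, an alternative chosen after seeing the data. The share of all coding genes bound was 34.5% with a window of 250 bp, 42.0% with 1000 bp, 37.4% with outermost starts only, 40.6% with the peak interval in place of the summit, 26.5% with the stricter set and 58.1% with all pooled peaks. It was 38.5% to 38.6% without a replicate. With all pooled peaks the widely expressed Rabs were bound in 100% of cases, and without a replicate in 92.9%. The Rab9 copies stayed at 0 bound in each alternative over these 5 genes, and reached 20% once the RabX genes were counted with them. The median rank was 961 with the stricter set, 1624.5 with all pooled peaks, and 1185.5 to 1407 without a replicate. The DRE share was 30.4% to 31.9% without a replicate. In flanking windows it was 0%. These settings differ in the peaks or windows counted.

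A window of 250 bp dropped Rab23, Rab3-GEF, Rab39, Sec15 and Sec61alpha. A window of 1000 bp or the peak interval added Rab26. Leaving out replicate 4 dropped Sec31. With 1 summit per region the same 47 genes were bound. No paired analysis was possible because there is 1 group. At this unknown depth, a missing peak means only that none was listed.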
